A study of Mus musculus with 16 samples.

Results

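The genes described here are the 3 brain-expressed metallothioneins Mt1, Mt2 and Mt3 and 7 genes of the antioxidant response driven by the transcription factor NRF2, namely Hmox1, Nqo1, Gclc, Gclm, Slc7a11, Txnrd1 and Srxn1. They were chosen by symbol, 10 of the 46320 genes in the count table, and each was found once. RNA was sequenced from motoneurons of lumbar spinal cords of embryonic day 13 mice, enriched by panning with an antibody to p75NTR and grown in microfluidic chambers that separate axons from cell bodies and dendrites. The 4 groups compared held 4 libraries each: the somatodendritic and the axonal compartment of +/+ (wildtype, WT) and of Hnrnpr-/- (knockout, KO) motoneurons, whose exons 1 to 5 of Hnrnpr, the gene of the RNA-binding protein hnRNP R, were deleted by CRISPR/Cas9. All cultures received medium with 2% B27 and 2% horse serum and 5 ng/ml CNTF in both compartments, while 20 ng/ml BDNF was given to the axonal compartment alone. The Hnrnpr-/- mice lack Hnrnpr in every cell, and mice of both genotypes were kept on a C57Bl/6 background, while the labels give neither sex nor the number of embryos behind a culture. Growth factor, cDNA reaction volume and number of PCR cycles differed between compartments in every culture, so their part in a compartment difference and that of RNA location cannot be told apart.

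Metallothioneins are small cysteine-rich proteins that bind zinc and copper; Mt1 and Mt2 are induced through metal response elements by the zinc-sensing factor MTF-1, and Mt3 is the form best known from the brain. NRF2, the product of Nfe2l2, is held in check by Keap1 in the cytosol and, once released under oxidative or electrophilic stress, binds antioxidant response elements together with small Maf proteins. Its targets make glutathione, reduce thioredoxin and peroxiredoxins, and detoxify quinones and heme. In neural tissue both sets of genes are known for strong expression in glia.

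Levels are given as CPM, that is counts scaled to a common library size with TMM factors, and a change was called at a Benjamini-Hochberg adjusted p under 0.05 over all genes tested in edgeR's quasi-likelihood test. Library totals ran from 22024923 to 34864151 counts. Hnrnpr itself had 4574 to 5913 counts in the somatodendritic and 3922 to 15608 in the axonal +/+ libraries, against 13 to 27 and 18.5 to 37.8 counts in the Hnrnpr-/- libraries. Replicate libraries correlated at Spearman's rho of 0.939 to 0.946 in the somatodendritic and 0.913 to 0.935 in the axonal compartment, and the common dispersion, the squared variation between replicates, was 0.0499 and 0.275. Of 10 motoneuron markers, Mnx1 had no count in 3 of the 4 groups, and Chat reached a mean of only 0.90 CPM and Isl1 of 5.09 CPM in the somatodendritic +/+ libraries, where Ret was at 92.5 CPM. The 10 markers summed to 139 to 260 CPM in somatodendritic and 6.30 to 126 CPM in axonal libraries, and Ret and Nefh alone made up 84.4% to 89.8% and 54.8% to 91.0% of that sum, so it mostly follows these 2 genes. The 12 astrocyte and radial glia markers were detected in every library and summed to 1746 to 3318 CPM in somatodendritic and 2773 to 6771 CPM in axonal libraries. In such bulk libraries, fewer cells of a type and less RNA per cell cannot be told apart.

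Between compartments, 8 of the 10 genes were higher in axonal than in somatodendritic RNA of +/+ motoneurons, and 1, Slc7a11, was lower. The metallothioneins were 9.70- to 18.6-fold higher, Hmox1 and Nqo1 7.83- and 4.54-fold, and Txnrd1 and Gclc 1.96- and 1.93-fold, with Gclm below both. Srxn1 did not pass the test. Across the table, 57.5% of the 19964 genes tested were called in this comparison and 30.1% were called higher in axons. The median log2 fold change was 1.57 over the 10 genes and 0.07 over all genes. In Hnrnpr-/- motoneurons the same 8 genes were called higher and Slc7a11 lower, where 54.2% of all genes were called and 27.5% were called higher, with medians of 1.88 and -0.00. Every axonal library lay above every somatodendritic library for those 8 genes in either genotype, as it did for 24.8% of all genes in +/+ and 24.1% in Hnrnpr-/- motoneurons. Of 5 nuclear RNAs (Malat1, Neat1, Meg3, Snhg11 and Kcnq1ot1), 3 were called higher and 2 lower in +/+ axons, beside 30.1% and 27.4% of all genes. In Hnrnpr-/- axons 1 was higher and 2 lower, beside 27.5% and 26.8%. They summed to 1037 to 1376 CPM in somatodendritic and 596 to 2634 CPM in axonal +/+ libraries. The part of nuclear RNA in the compartment changes was not tested.

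**Figure D1:**
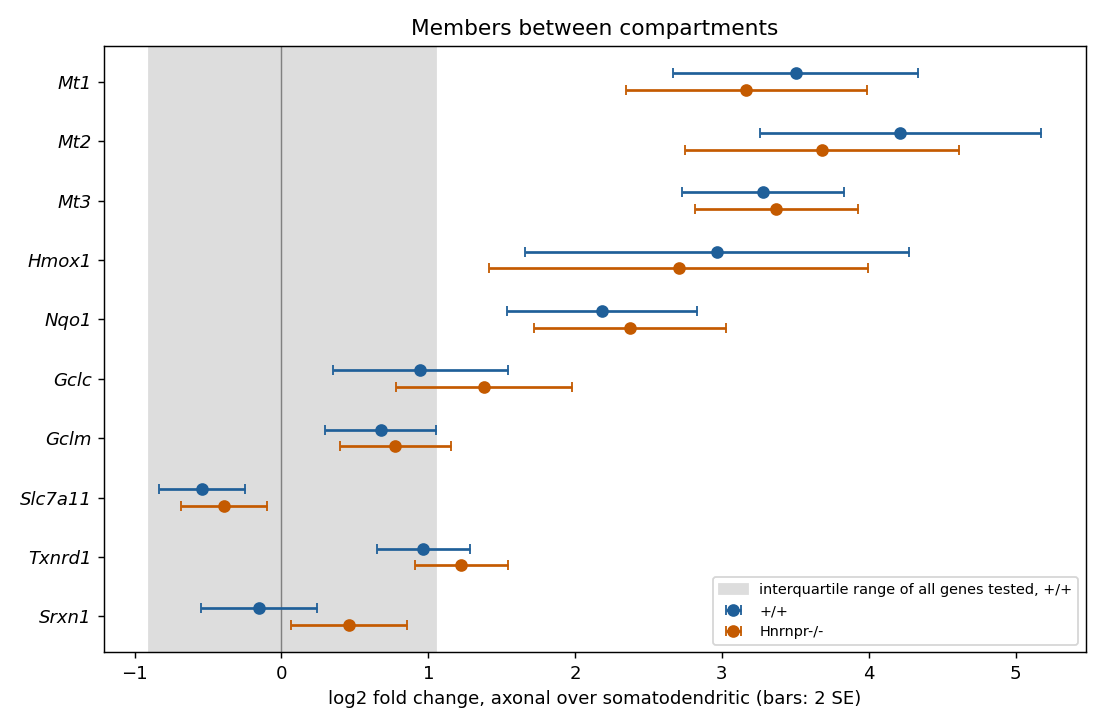
Log2 fold change of each gene between the axonal and the somatodendritic compartment, in +/+ (blue) and Hnrnpr-/- (orange) motoneurons, with bars of 2 SE from the edgeR fit; the grey band is the interquartile range of all genes tested in +/+ motoneurons. The 3 metallothioneins, Hmox1 and Nqo1 lie to the right of the band in both genotypes, and Slc7a11 is the only gene below 0 in both.

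Metallothionein mRNA showed the largest difference. Mt1 stood at 47.3, 26.3, 21.9 and 33.9 CPM in the somatodendritic +/+ libraries (replicates 1 to 4) and at 293, 538, 356 and 281 CPM in the axonal ones. Its somatodendritic levels in Hnrnpr-/- motoneurons were 17.9, 34.4, 35.0 and 49.6 CPM, and its axonal levels were 115, 361, 390 and 364 CPM. The lowest axonal library, Hnrnpr-/- replicate 1, was still above the highest somatodendritic one. On the log2 scale Mt1 changed by 3.50 (SE 0.42, adjusted p = 3.1e-05) in +/+ and 3.17 (SE 0.41, adjusted p = 6.5e-05) in Hnrnpr-/- motoneurons.

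Mt2, the neighbour and close relative of Mt1, had the steepest change of the 10 genes and the lowest somatodendritic level of the metallothioneins. It was at 6.12, 4.28, 3.52 and 7.23 CPM in somatodendritic and 66.5, 153, 106 and 67.3 CPM in axonal +/+ libraries. The Hnrnpr-/- libraries gave 3.05, 7.75, 5.99 and 8.45 CPM in the somatodendritic and 26.9, 95.7, 121 and 80.9 CPM in the axonal compartment. The groups of the 2 compartments did not overlap, and replicate 1 was again the lowest Hnrnpr-/- library in both. Its log2 fold change was 4.21 (SE 0.48, adjusted p = 2.7e-05) in +/+ and 3.68 (SE 0.47, adjusted p = 5.7e-05) in Hnrnpr-/- motoneurons, and 1.51% of all genes had a higher value in +/+.

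Mt3, the brain form, had 24.4, 13.5, 12.5 and 13.1 CPM in somatodendritic and 117, 216, 177 and 107 CPM in axonal +/+ libraries. In Hnrnpr-/- motoneurons it ranged from 10.6 to 14.5 CPM in the somatodendritic compartment and from 110.2 to 150.3 CPM in the axonal one. Its axonal Hnrnpr-/- libraries were the tightest of the metallothioneins, with a coefficient of variation of 16.8% against 41.9% for Mt1 and 48.9% for Mt2. The change of Mt3 came to 3.28 on the log2 scale (SE 0.28, adjusted p = 5.4e-06) in +/+ and 3.37 (SE 0.28, adjusted p = 1.0e-05) in Hnrnpr-/- motoneurons. Together the 3 transcripts took 38.0 to 77.9 CPM of the somatodendritic and 456 to 907 CPM of the axonal +/+ libraries, and 31.5 to 70.1 and 253 to 656 CPM of the Hnrnpr-/- libraries. Mt4, the remaining mouse metallothionein, had 0 counts in all 16 libraries.

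**Figure D2:**
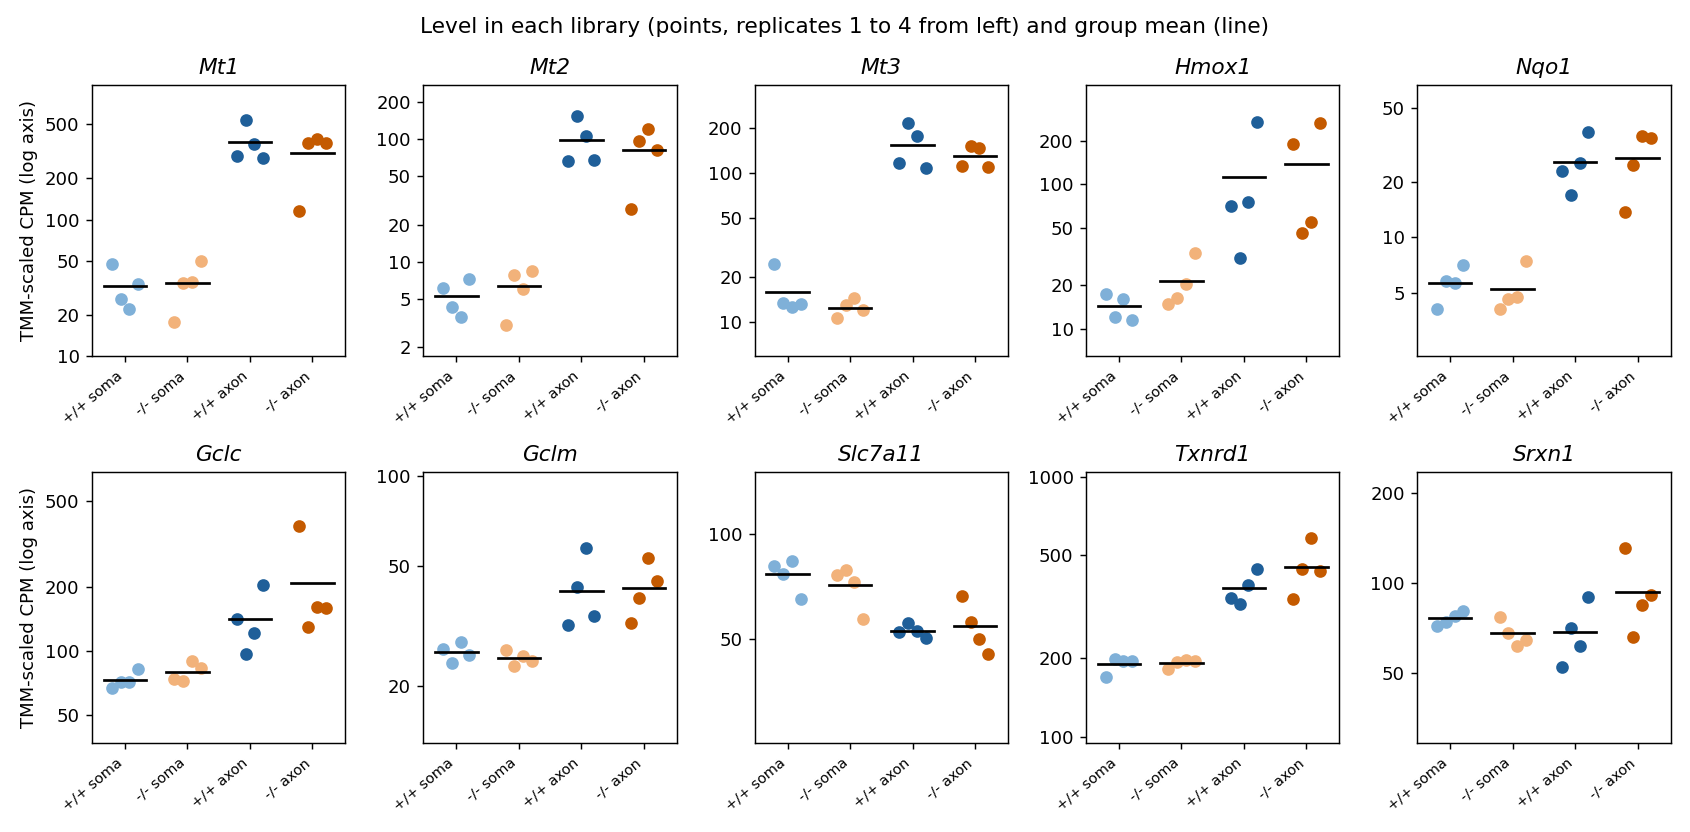
TMM-scaled CPM on a log axis for each of the 10 genes in the 4 groups, with a point for each library and a line at the group mean of 4 libraries. The axonal points of Mt1, Mt2, Mt3, Hmox1 and Nqo1 stand apart from the somatodendritic ones, while those of Srxn1 overlap them.

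The 3 metallothionein genes lie on the same strand of chromosome 8 within 27721 bases of GRCm39, Mt3 at chr8:94879235-94880776, Mt2 at chr8:94899246-94900195 and Mt1 at chr8:94905214-94906955. Because Mt1 and Mt2 moved together, the bases before a transcript start of each are shown, beside those of Srxn1, which did not pass the test between compartments. RefSeq windows of GRCm38.p6 matched 8 of the 10 genes, with none for Hmox1 and Gclc. A window is placed at the transcript start RefSeq gives there, which need not be the outer end of the gene span. Matched letter for letter to GRCm39, the starts of Mt2, Mt3 and Gclm fell at the first base of their spans, whereas that of Mt1 lay 503 bases inside its span, at 94905717, and that of Srxn1 706 bases inside. The nearest start in the GENCODE annotation was 7 bases away for Mt1 and 46 for Mt2. Those of Slc7a11 and Nqo1 lay 5885 and 9175 bases inside, and Txnrd1 had 3 windows, 1 of them at its outer start. Each line below ends at the base before that transcript start, is read 5′ to 3′ on the plus strand and holds 130 bases, with motif matches in capitals.
Mt2, chr8:94172488-94172617: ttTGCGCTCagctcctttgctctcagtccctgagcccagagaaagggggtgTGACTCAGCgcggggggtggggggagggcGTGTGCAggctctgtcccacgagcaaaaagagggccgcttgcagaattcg
Mt1, chr8:94178959-94179088: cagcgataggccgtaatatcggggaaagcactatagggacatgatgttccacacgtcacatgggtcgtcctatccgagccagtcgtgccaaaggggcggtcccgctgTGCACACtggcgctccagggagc
Srxn1, chr2:152105394-152105523: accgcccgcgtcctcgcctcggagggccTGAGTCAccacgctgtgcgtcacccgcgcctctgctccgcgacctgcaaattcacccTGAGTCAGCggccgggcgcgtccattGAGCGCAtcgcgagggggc

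A set of 3 motifs was searched on both strands of the 250 bases before each of these transcript starts: the metal response element core TGCACNC or TGCGCNC, an antioxidant response element TGANTCAGC, and the AP-1 site TGACTCA, whose letters overlap those of the antioxidant element. Mt2 held 3 metal response cores, at 223, 128 and 50 bases before its start, where 1.26% of the 32851 windows of the genome held 3 or more. Mt1 and Srxn1 held 1 each and Gclm held 2, against 21.4% of windows with at least 1 and 5.17% with at least 2. The antioxidant element was found once in Mt2, 79 bases before the start, and once in Srxn1, 45 bases before it, and in 1.02% of all windows. Srxn1 held 2 AP-1 matches and Mt2 held 1, where 4.46% of windows held any, and for both genes 1 of these lay within the antioxidant element. None of the motifs was found in the windows of Mt3, Nqo1, Slc7a11 or Txnrd1. The bases before the outer ends of the spans of Mt1, Srxn1, Slc7a11 and Nqo1 were not searched, nor were bases after any of these transcript starts. The counts are those of the windows and not of the genes, and they do not rank Mt1 against Mt2 or Srxn1. A match is a description of letters, and binding was not measured.

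Hmox1 and Nqo1 carry out detoxification. Hmox1 (chr8:75820246-75827221 of GRCm39) makes heme oxygenase 1, which breaks heme down to biliverdin, iron and carbon monoxide. It was at 17.5, 12.2, 16.2 and 11.6 CPM in somatodendritic and 71.3, 31.0, 76.0 and 271 CPM in axonal +/+ libraries. The Hnrnpr-/- motoneurons held 14.7, 16.3, 20.5 and 33.6 CPM in the somatodendritic and 189, 46.4, 54.6 and 265 CPM in the axonal compartment. Axonal levels thus spread widely, with a coefficient of variation of 96.0% in +/+ and 76.7% in Hnrnpr-/- motoneurons, the highest of the 10 genes, and replicate 4 was the highest library in both genotypes. This amounted to a log2 fold change of 2.97 (SE 0.65, adjusted p = 0.0016), or 7.83-fold, in +/+ and to a 6.52-fold change (SE 0.65 on the log2 scale, adjusted p = 0.0030) in Hnrnpr-/- motoneurons. Without axonal replicate 4 of both genotypes the log2 fold changes were 2.05 and 2.19 and were still called.

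The axonal level of Hmox1 moved with markers of fibroblast and meningeal cells. Their 10 genes summed to 1249, 226, 549 and 2431 CPM in axonal +/+ replicates 1 to 4 and to 1065, 492, 724 and 2304 CPM in the axonal Hnrnpr-/- replicates, so both replicates 4 were highest and both replicates 2 lowest on either measure. Over the 8 axonal libraries, log2 Hmox1 and the log2 sum had a Pearson's r of 0.90 and a Spearman's rho of 0.88. In the somatodendritic compartment the sum ran from 136 to 559 CPM in +/+ and from 169 to 1367 CPM in Hnrnpr-/- libraries, and 4 of the 10 markers were called higher in axons in +/+ and 3 in Hnrnpr-/- motoneurons, where 30.1% and 27.5% of all genes were. None of them was at 0 throughout a group. The endothelial sum, which in axonal libraries came mainly from Flt1 and Kdr while Cldn5, Cdh5 and Tie1 had no count in the +/+ ones, gave an r of 0.88. Of 5 endothelial genes tested, 2 were called higher and 2 lower in +/+ axons, beside 30.1% and 27.4% of all genes. In Hnrnpr-/- axons 2 were higher and 3 lower, beside 27.5% and 26.8%. The part of these cells in the level of Hmox1 was not tested. In all, 140 such values, for 10 genes, 7 marker lists and 2 compartments, were computed over libraries that share cultures and depth. The 17 with an absolute r of at least 0.7 are all given with their genes. Such values were not computed for all genes, so nothing is read from the count of 17.

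**Figure D3:**
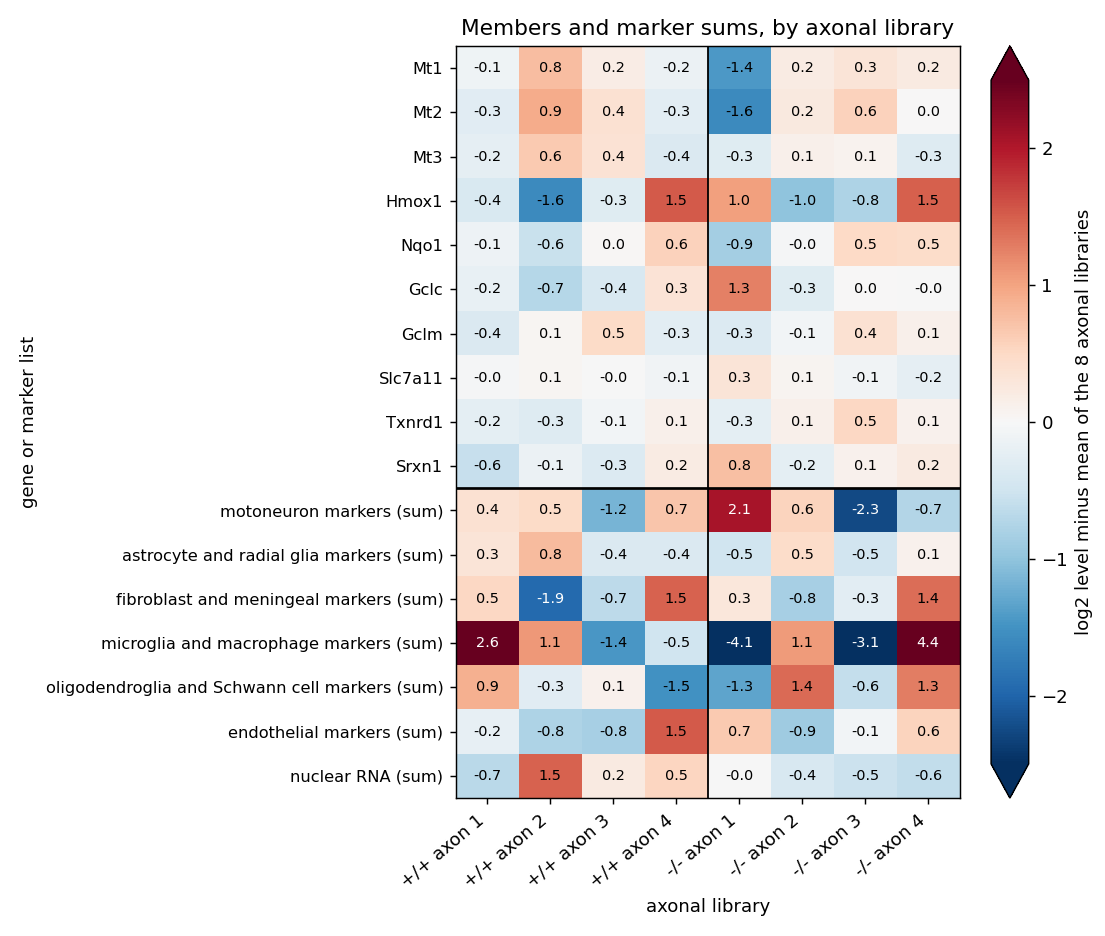
Level of each gene and summed level of each marker list in the 8 axonal libraries, as the log2 difference from their mean, in numbers and in colour (red higher, blue lower; colours saturate at 2.5). Hmox1 and the fibroblast and meningeal sum are lowest in +/+ replicate 2 and highest in both replicates 4, and Hnrnpr-/- replicate 1 is lowest in Mt1 and Mt2 and highest in Gclc.

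Mt3 ran opposite to the same markers, with an r of -0.94 and a rho of -0.95 to the fibroblast and meningeal sum over the 8 axonal libraries, where Mt1 had an r of -0.43 and Mt2 of -0.55. In the somatodendritic libraries the sign was the other way, at 0.23 for Mt3, 0.69 for Mt1 and 0.58 for Mt2. Against the astrocyte and radial glia sum, r was 0.56 for Mt1, 0.46 for Mt2 and 0.45 for Mt3 in the axonal and 0.65, 0.45 and 0.29 in the somatodendritic libraries. Mt1 and Mt2 ran opposite to the motoneuron marker sum, with an r of -0.62 and -0.67 in the axonal and -0.76 and -0.92 in the somatodendritic libraries, where Mt3 had -0.28 and -0.08. With the microglia and macrophage sum, r was 0.50 for Mt1, 0.31 for Mt2 and -0.07 for Mt3 in the axonal and 0.69, 0.54 and 0.24 in the somatodendritic libraries, and the axonal rho of Mt2 was 0.048. Mt3 also had an r of -0.81 with the endothelial sum in axons, again mainly Flt1 and Kdr. The astrocyte and radial glia sum was 1746 to 2753 CPM in somatodendritic and 3028 to 6771 CPM in axonal +/+ libraries, so its ranges did not overlap, while in Hnrnpr-/- libraries they did, at 2022 to 3318 and 2773 to 5411 CPM. Of its markers, 5 of 12 were called higher in +/+ axons and 2 in Hnrnpr-/- axons, beside the same 30.1% and 27.5% of all genes. No astrocyte marker was at 0 in any group. The part of glial and motoneuron RNA in the metallothionein levels was not tested.

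Nqo1 (minus strand, chr8:108114856-108139012) encodes the quinone reductase that gives NRF2 studies one of their standard readouts. It was the gene with the lowest level per length in the somatodendritic compartment, at 4.10, 5.81, 5.63 and 7.09 CPM in +/+ and 4.08, 4.63, 4.78 and 7.42 CPM in Hnrnpr-/- libraries. Axonal libraries held 23.0, 17.0, 25.4 and 37.2 CPM in +/+ and 13.8, 24.6, 35.4 and 34.4 CPM in Hnrnpr-/- motoneurons. No axonal library fell to the somatodendritic range. Nqo1 differed by 2.18 on the log2 scale (SE 0.32, adjusted p = 0.00011) in +/+ and 2.37 (SE 0.33, adjusted p = 9.3e-05) in Hnrnpr-/- motoneurons.

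The glutathione genes split. Gclc (chr9:77661817-77701771), the catalytic subunit of glutamate-cysteine ligase, which makes the first step of glutathione synthesis, was at 66.8, 71.9, 71.6 and 82.1 CPM in somatodendritic and 141, 97.3, 122 and 203 CPM in axonal +/+ libraries. Its Hnrnpr-/- levels were 73.9, 72.5, 90.1 and 83.1 CPM in the somatodendritic and 382, 129, 160.3 and 159.5 CPM in the axonal compartment, where replicate 1 stood far above the others. Gclc differed by 0.95 on the log2 scale (SE 0.30, adjusted p = 0.014) in +/+ and 1.38 (SE 0.30, adjusted p = 0.0016) in Hnrnpr-/- motoneurons. Without axonal Hnrnpr-/- replicate 1 the latter was 0.90, and without axonal replicate 4 of both genotypes the +/+ value was 0.71 and lost its call (adjusted p = 0.052). Axonal Gclc had an r of 0.71 and a rho of 0.86 with the endothelial sum, which there came mainly from Flt1 and Kdr. With the astrocyte and radial glia sum its r was -0.67 and its rho -0.71. The part of the cells behind these sums in the level of Gclc was not tested.

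Gclm (chr3:122039206-122060864), the modifier subunit of the same ligase, shifted less. It was at 26.6, 23.9, 28.0 and 25.4 CPM in somatodendritic and 31.8, 42.6, 57.4 and 34.1 CPM in axonal +/+ libraries, which did not overlap. Hnrnpr-/- libraries ran from 23.3 to 26.3 CPM in the somatodendritic and from 32.4 to 53.2 CPM in the axonal compartment. The log2 fold change was 0.68 (SE 0.19, adjusted p = 0.0071) in +/+ and 0.78 (SE 0.19, adjusted p = 0.0034) in Hnrnpr-/- motoneurons. Its span overlaps that of Gm6061 on the same strand, and its counts were fractional in 2 of 16 libraries. Against the motoneuron marker sum, Gclm had an r of -0.85 and a rho of -0.74 in the axonal and an r of 0.57 in the somatodendritic libraries. The part of motoneuron RNA in its change was not tested.

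Slc7a11 (minus strand, chr3:50319385-50403947), the cystine importer that feeds the ligase with cysteine, went the other way. Somatodendritic levels were 80.7, 76.5, 83.5 and 65.1 CPM and axonal levels 52.1, 55.3, 52.7 and 50.4 CPM in +/+ motoneurons, with no overlap. In Hnrnpr-/- motoneurons they were 76.3, 78.5, 72.9 and 57.1 CPM and 66.3, 55.8, 49.97 and 45.3 CPM, and axonal replicate 1 lay above somatodendritic replicate 4. The log2 fold change was -0.54 (SE 0.15, adjusted p = 0.0059) in +/+ and -0.39 (SE 0.15, adjusted p = 0.034) in Hnrnpr-/- motoneurons. The Hnrnpr-/- call was lost in 12 of 19 alternative settings, among them those without somatodendritic replicate 1, 2 or 3 or axonal replicate 2, 3 or 4, with values of -0.31 to -0.41. Slc7a11 was also the only member with fractional counts in all 16 libraries, from reads shared with other places in the genome or other genes. Its level ran with the motoneuron marker sum, mostly Ret and Nefh, at an r of 0.71 among axonal libraries and 0.67 among somatodendritic ones (8 each), and that sum was itself lower in axons. The part of motoneuron RNA in the change of Slc7a11 was not tested.

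Txnrd1 and Srxn1 serve the thioredoxin arm. Txnrd1 (chr10:82669785-82733558), the cytosolic thioredoxin reductase, had the highest mean level per length of the 10 genes in the somatodendritic +/+ compartment. It was at 170.1, 199, 195 and 196 CPM in somatodendritic and 340.1, 324, 383 and 440 CPM in axonal +/+ libraries. Hnrnpr-/- libraries held 182 to 197 CPM in the somatodendritic and 339 to 581 CPM in the axonal compartment, again without overlap. The log2 fold change was 0.97 (SE 0.16, adjusted p = 0.00020) in +/+ and 1.23 (SE 0.16, adjusted p = 6.3e-05) in Hnrnpr-/- motoneurons. The span of Txnrd1 overlaps Eid3 on its own strand and Gm38560 on the other. Reads were counted on the reverse strand, and whether the libraries keep strand, and so whether reads of genes on opposite strands were told apart, was not tested.

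Srxn1 (chr2:151946738-151953296) makes sulfiredoxin, which restores overoxidized peroxiredoxins. Its +/+ levels were 71.9, 74.1, 77.6 and 80.5 CPM in the somatodendritic and 52.2, 70.8, 61.2 and 89.4 CPM in the axonal compartment, which overlapped. The Hnrnpr-/- levels were 77.0, 67.8, 61.4 and 64.4 CPM and 131, 66.1, 84.3 and 91.3 CPM, with axonal replicate 1 the highest. The log2 fold change was -0.15 (SE 0.20, adjusted p = 0.53) in +/+ and 0.46 (SE 0.20, adjusted p = 0.060) in Hnrnpr-/- motoneurons. The latter was called in 6 of 19 alternative settings, including those without somatodendritic Hnrnpr-/- replicate 1 (0.58) and without axonal Hnrnpr-/- replicate 2 (0.59).

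Per kilobase of combined exon length, the order of levels differed between compartments. In axonal +/+ libraries Mt1 (292 ± 94.3 CPM per kb, SD, n = 4) and Mt3 (287 ± 95.5) had the highest means, followed by Mt2 at 177 ± 73.8, and the ranges of the 3 overlapped. Txnrd1 was at 92.5 ± 12.9, below every Mt2 value and above every Gclc value (37.9 ± 12.2). Hmox1, at 71.4 ± 68.5, ranged so widely that it could be ordered against none of Mt2, Txnrd1, Gclc, Srxn1 and Gclm. Srxn1 at 20.1 ± 4.67 and Gclm at 20.0 ± 5.58 could not be ordered either, and both overlapped Gclc in range, Srxn1 barely. Nqo1 (7.65 ± 2.53) and Slc7a11 (5.61 ± 0.218), whose ranges overlapped, lay below all values of the others. In the somatodendritic +/+ compartment Txnrd1 had the highest mean at 47.3 ± 3.34 CPM per kb. Mt3 (29.5 ± 10.6), Mt1 (25.7 ± 8.84), Srxn1 (22.3 ± 1.10) and Gclc (19.7 ± 1.74) followed, and neighbours from Txnrd1 to Gclc overlapped in range. Below every value of these, Gclm was at 12.5 ± 0.840, Mt2 at 9.51 ± 3.05, Hmox1 at 9.11 ± 1.86, and Slc7a11 at 8.15 ± 0.864 CPM per kb, again overlapping from neighbour to neighbour, and Nqo1 was below all at 1.69 ± 0.365 CPM per kb.

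Short transcripts were more often higher in axons across the whole table. Of genes with a combined exon length up to 1894 bases, which hold the 3 metallothioneins (538 to 1258 bases) and Hmox1 (1576 bases), 53.2% were called higher in +/+ axons. The share was 31.6% from 1895 to 3449 bases, where Gclm, Nqo1 and Srxn1 lie, and 20.8% from 3450 to 5993 bases, where Gclc and Txnrd1 lie. It was 14.9% among genes of 5994 bases or more, which include Slc7a11 (9381 bases). From the shortest to the longest of these classes, the median log2 fold change was 0.86, 0.20, -0.27 and -0.52. The metallothioneins and Hmox1 lay above the median of their class, as did Nqo1, Gclm, Gclc and Txnrd1, while Srxn1 (-0.15) lay below it and Slc7a11 (-0.54) was near it. The part of length in the order of the 10 genes was not tested.

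Loss of hnRNP R was not accompanied by a called change of any of the 10 genes in either compartment. In the somatodendritic compartment 0 of 10 were called by edgeR, by DESeq2 or by limma, where 0.00557% of the 17961 genes tested were called by edgeR, and that gene was Hnrnpr. At an unadjusted p under 0.05 there was 1 of the 10, against 471 of all genes. That gene was Hmox1, with a log2 fold change of 0.58 (SE 0.26, unadjusted p = 0.047, adjusted p = 0.999), and its exact two-sided permutation p was 0.14, where 4 against 4 libraries allow no p below 0.029. Hmox1 means were 14.4 ± 2.93 CPM in +/+ and 21.3 ± 8.56 CPM in Hnrnpr-/- libraries (SD, n = 4). The genotypes overlapped for all 10 genes, where 1.47% of all genes did not overlap.

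Intervals of 2 SE around the somatodendritic log2 fold change between genotypes differed in width. They ran from -0.16 to 0.21 for Txnrd1, -0.27 to 0.15 for Gclm and -0.08 to 0.36 for Gclc. Mt1 differed by 0.09 with an interval from -0.50 to 0.68, Mt2 by 0.26 (-0.38 to 0.90) and Mt3 by -0.34 (-0.78 to 0.10). The lowest permutation p was 0.086, for Srxn1, with a log2 fold change of -0.16. Somatodendritic Hmox1 moved with other markers too: over the 8 libraries r was 0.92 with the astrocyte and radial glia sum, 0.92 with the endothelial sum, 0.88 with the microglia and macrophage sum, 0.77 with the fibroblast and meningeal sum and 0.76 with the oligodendroglia and Schwann cell sum. In the Hnrnpr-/- library with the highest Hmox1, replicate 4, these sums were 3318, 37.5, 162, 1367 and 1354 CPM, each the highest of the 8 libraries, and their part in the Hmox1 difference was not tested. The glial sums did not go with Hmox1 in the same way in the 8 axonal libraries. There r was -0.55 for astrocyte and radial glia, 0.03 for microglia and macrophage and -0.28 for oligodendroglia and Schwann cell markers.

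**Figure D4:**
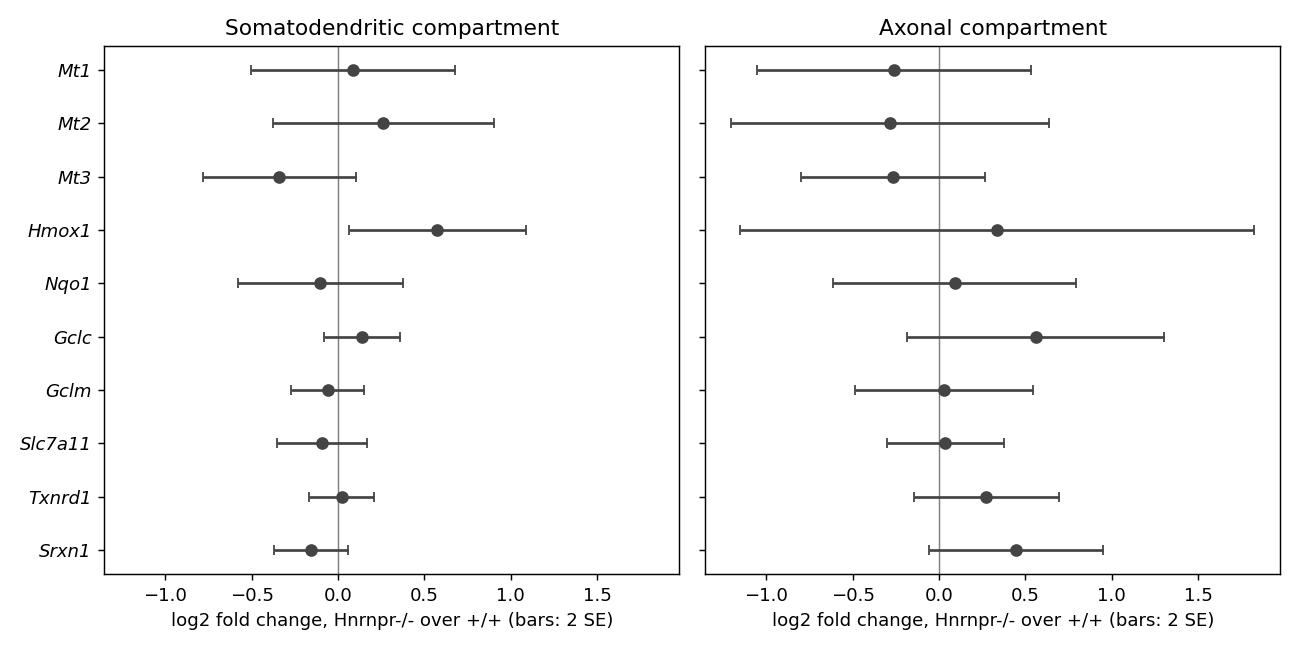
Log2 fold change of each gene between Hnrnpr-/- and +/+ motoneurons in the somatodendritic (left) and the axonal compartment (right), with bars of 2 SE from the edgeR fit to the 8 libraries of that compartment. Bars are wider in axons, and no gene was called.

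In axons 0 of the 10 genes were called between genotypes by any of the same tools, where 0.00528% of 18957 genes tested were called by edgeR, Hnrnpr alone. None of the 10 reached an unadjusted p under 0.05, against 137 of all genes. Log2 fold changes ran from -0.28 for Mt2 to 0.56 for Gclc, and the lowest exact permutation p was 0.17, for Srxn1. The intervals were wide, from -1.15 to 1.83 for Hmox1, -1.05 to 0.53 for Mt1, -1.20 to 0.64 for Mt2 and -0.18 to 1.30 for Gclc, so changes of more than 2-fold in these genes lay inside them. Slc7a11 had the narrowest, from -0.30 to 0.37. All 10 genes overlapped between genotypes, where 0.591% of all genes did not.

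Single axonal libraries weighed on these values. Without axonal Hnrnpr-/- replicate 1, in which Mt1 and Mt2 were lowest and Gclc and Srxn1 highest, the log2 fold change of Gclc between genotypes fell from 0.56 to 0.10 and that of Mt1 went from -0.26 to 0.019. Hmox1 moved between -0.24, without Hnrnpr-/- replicate 4, and 1.22, without +/+ replicate 4. That Hnrnpr-/- replicate 1 also had the highest motoneuron marker sum of the axonal libraries, at 126 CPM, mostly from Ret and Nefh, and the lowest sums of astrocyte and radial glia markers, at 2773 CPM, and of microglia and macrophage markers, at 1.54 CPM. The part of these cells in its values was not tested.

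The difference of the knockout effect between compartments was tested in the fit to all 16 libraries, in which 0 of 10 members and 0% of the 19964 genes passed; DESeq2 and limma called none of the 10 either. At an unadjusted p under 0.05 there were 1 of the 10 and 265 of all genes. That gene was Srxn1, with a difference of 0.61 (SE 0.28, unadjusted p = 0.044, adjusted p = 1.00), its axonal value being 0.45 and its somatodendritic value -0.16. Srxn1 ran opposite to glial marker sums, with an r in the somatodendritic libraries of -0.86 for astrocyte and radial glia, -0.78 for microglia and macrophage and -0.74 for oligodendroglia and Schwann cell markers, and of -0.53, -0.47 and -0.58 in the axonal ones. The part of these cells in its difference was not tested.

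Within a compartment the 10 genes did not move as a block. Across deviations from the group means, Mt1 and Mt2 moved together, with an r of 0.98 over 8 axonal and 0.90 over 8 somatodendritic libraries. Gclc ran opposite to Mt1 in axons at an r of -0.94, a value in which Hnrnpr-/- replicate 1 holds the extreme of both. In the somatodendritic libraries the r of these 2 genes was 0.23. Nqo1 rose with Txnrd1 in axons (r of 0.88) and ran opposite to Slc7a11 at -0.88 in axonal and at -0.87 in somatodendritic libraries. The pairs named were picked for large values among all pairs of the 10 genes in both compartments, and others are not listed.

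The other genes of the pathways were described from 4 lists, to be read against the shares over all genes, of which 30.1% were called higher and 27.4% lower in +/+ axons and 27.5% and 26.8% in Hnrnpr-/- axons. Among 13 NRF2 and metal regulators, 3 were higher and 4 lower in +/+ axons, and the median log2 fold change was -0.16, a count near those shares. Nfe2l2, which encodes NRF2, rose from 10.0 ± 2.23 CPM to 85.0 ± 12.5 CPM, a log2 fold change of 3.08 (SE 0.31, adjusted p = 1.8e-05) in +/+ and 2.42 (SE 0.30, adjusted p = 4.8e-05) in Hnrnpr-/- motoneurons. Its partners Maff (3.12) and Mafk (2.24), small Maf proteins, were also higher, while the small Maf gene Mafg had -0.16 (adjusted p = 0.30). The repressors Bach1 (-0.64) and Bach2 (-1.03) and the NRF2 relatives Nfe2l1 (-0.78) and Nfe2l3 were lower. The mean of Nfe2l3 was 3.78 CPM in the +/+ somatodendritic compartment and 0.79 CPM in +/+ axons, where 1 or more libraries had no count, so its fold is not sized. Keap1, the inhibitor of NRF2, had -0.23 (adjusted p = 0.19) and Mtf1, the metal sensor, 0.23 (adjusted p = 0.16). In Hnrnpr-/- motoneurons 4 regulators were higher, with Mtf1 added at 0.52 (adjusted p = 0.0060), and 5 were lower, with a median of 0.00.

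In the glutathione and thioredoxin pathway, the longest list, 20 of 31 genes were higher and 1 lower in +/+ axons, and 21 were higher and 1 lower in Hnrnpr-/- axons, where 30.1% and 27.5% of all genes were called higher. Its medians were 1.04 and 1.25. The endoplasmic reticulum peroxidase Gpx8 (3.44) and the peroxiredoxin Prdx6 (3.06) were higher, and Ggt7 was lower at -1.23. The glutathione transferase Gstm2 was called as well, at a mean of 10.4 CPM in axonal and 0.40 CPM in somatodendritic +/+ libraries, 1 or more of which had no count, so its fold is not sized. Of 21 other NRF2 targets, 13 were higher and 1 lower in either genotype, with medians of 0.84 and 0.86, against the same shares of all genes. These included the aldo-keto reductase Akr1b8 (3.64) and the epoxide hydrolase Ephx1 (3.26), while Idh1, a cytosolic source of NADPH, was lower at -1.06. Osgin1 was also called, at a mean of 3.15 CPM in axonal and 0.08 CPM in somatodendritic +/+ libraries, too few counts to size its fold.

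Of 25 zinc and copper genes tested among 26, 7 were higher and 7 lower in +/+ axons, and 8 and 7 in Hnrnpr-/- axons, with medians of 0.14 and 0.44. These counts are near the shares over all genes and are not read as a result about the list. The copper chaperones Ccs (1.76) and Atox1 (1.61) and the zinc importer Slc39a12 (1.74) were higher in +/+ axons. The SLC30 family genes Slc30a3 (-2.18) and Slc30a10 (-1.72) and the importer Slc39a3 (-1.29) were lower. No gene of the 4 lists was called between genotypes or for the difference between compartments by edgeR.

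**Figure D5:**
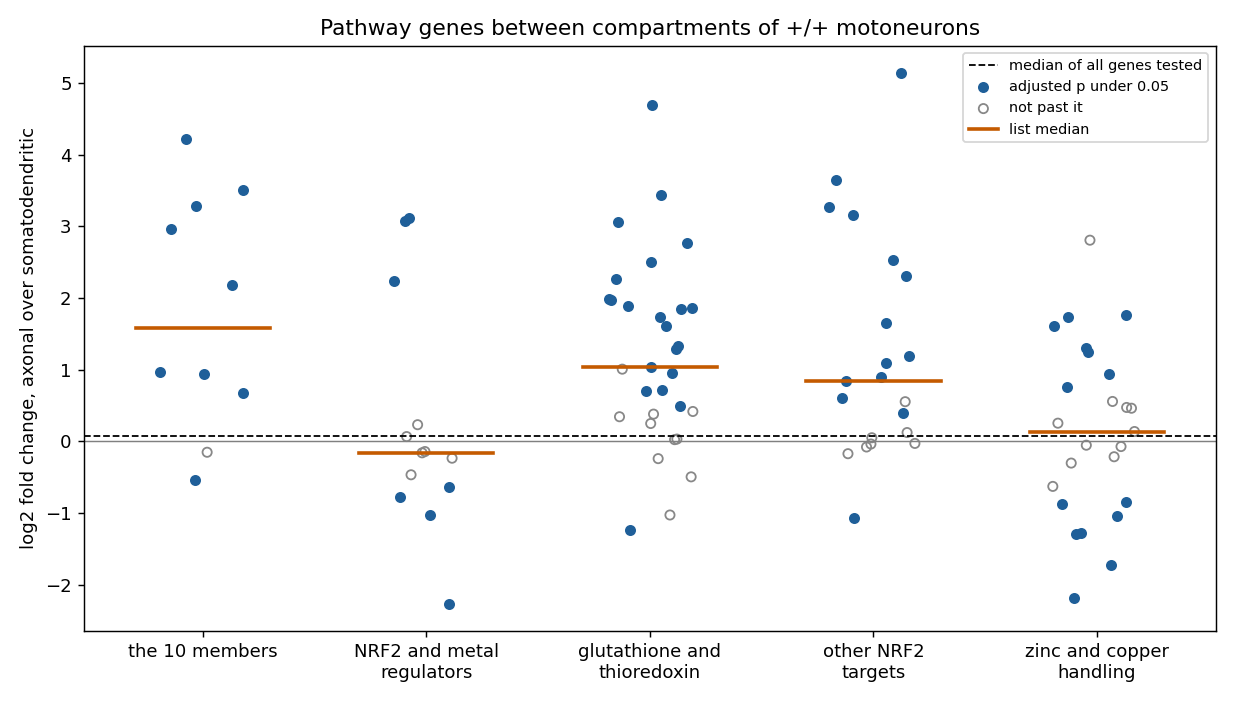
Log2 fold change between the axonal and the somatodendritic compartment of +/+ motoneurons for the 10 genes and 4 pathway lists, with a point for each gene tested (filled where the adjusted p was under 0.05) and an orange line at the list median. The medians of the 10 genes (1.57) and of the glutathione and thioredoxin list (1.04) lie above that of all genes (0.07, dashed), and that of the regulators (-0.16) below it.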

How the data were processed

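Per the study's methods and the submitters' processing notes, the authors trimmed single-end reads of SMART-Seq v4 libraries with Cutadapt. They aligned the reads to GRCm39 with STAR 2.7.2b. They deposited fractional counts per gene from featureCounts 1.6.4 (exons, multi-mapped and overlapping reads shared, reverse strand) and used DESeq2 1.24.0 with shrinkage. Whether these libraries keep strand was not tested, and if they do not, counting the reverse strand alone leaves out reads of all genes. PCR reads carry no molecular identifiers, so counts are not independent molecules.

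Here the expected counts deposited by the authors were rounded, filtered with filterByExpr by group and scaled by TMM. Tests were two-sided quasi-likelihood F-tests in edgeR 4.0.16 (R 4.3.3), p-values adjusted by Benjamini-Hochberg across every gene tested. Compartments and the difference of the knockout effect were fitted over all 16 libraries, and genotypes within the 8 libraries of a compartment, since the spread differed. DESeq2 1.42.0 and limma 3.58.1 were alternatives. A single gene's exact permutation test used log2 CPM with a prior count of 2. Scripts were tested on simulated data. All 10 genes were named. From each list the 3 genes with the largest absolute change in each direction were named among those called in +/+ motoneurons, and Nfe2l2, Keap1, Bach1 and Mtf1 always; Mafg was added after its values were seen. The genes, lists, tests and motifs were chosen with earlier results of these data known. Levels per length used combined exons of the RefSeq annotation, and promoter windows were RefSeq's for GRCm38.p6, another build than the counts, whose place in GRCm39 was found by exact match of their letters. The labels number 4 replicates per group without saying which embryos they came from, so p-values measure the spread between these libraries. No pair of libraries held identical values. Total counts of 22024923 to 34864151 per library set the depth.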

Additional observations from a re-analysis of the deposited data

Results flagged for a closer look

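In 4 of 40 groups of 4 libraries (10 genes in 4 groups), the gap between an extreme library and the nearest of the others, divided by the group's range of CPM, was above Dixon's 95% critical value for 4 samples; chance alone flags about 1 group in 20. Over all genes tested, 7.35% of such groups were past it, so nothing is read from the count of 4. These 4 come from 2 libraries, axonal Hnrnpr-/- replicate 1 and somatodendritic +/+ replicate 1, and are not separate events. Mt1 in axonal Hnrnpr-/- libraries had a ratio of 0.894, with replicate 1 at 115 CPM against 361 to 390 CPM. Gclc in the same group had 0.876, with replicate 1 at 382 CPM against 129 to 160.3 CPM. Mt3 in somatodendritic +/+ libraries had 0.920, with replicate 1 at 24.4 CPM against 12.5 to 13.5 CPM. Txnrd1 in somatodendritic +/+ libraries had 0.841, with replicate 1 at 170.1 CPM against 195 to 199 CPM.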

How the results depend on the processing

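The number of called genes among the 10 was 8 to 9 between compartments of +/+ and 8 to 10 of Hnrnpr-/- motoneurons over all alternatives, where 33.0% to 61.4% and 30.2% to 58.3% of all genes in the fit were called, and 0 in every alternative for both genotype comparisons and for the difference of the knockout effect. Library totals without TMM factors moved the median log2 fold change of all genes from 0.07 to 0.22 in +/+ and from -0.00 to 0.12 in Hnrnpr-/- motoneurons, a shift shared by the 10 genes. Single-gene effects between genotypes changed sign in 17 cases of 1 gene under 1 setting, none of them called. Leaving out 1 library at a time gave, in the somatodendritic compartment, -0.15 to 0.33 for Mt1, -0.32 to 0.018 for Nqo1 and -0.030 to 0.056 for Txnrd1. In axons it gave -0.38 to 0.019 for Mt1, -0.53 to 0.028 for Mt2, -0.24 to 1.22 for Hmox1, -0.066 to 0.31 for Nqo1, -0.10 to 0.26 for Gclm and -0.062 to 0.11 for Slc7a11. Without both axonal replicates 4, a setting chosen after seeing the data, Gclm had -0.089; the cause was not tested. With the replicate block, 9 of 10 genes were called between compartments in +/+ and 9 in Hnrnpr-/- motoneurons, beside 56.3% and 54.4% of all genes, and 0 between genotypes. Same-numbered libraries of the 2 genotypes correlated at 0.024 to 0.85 in axons and -0.01 to 0.63 in the somatodendritic compartment. Only some same-numbered libraries thus deviated together, and the genotypes were not treated as paired. Within a genotype, each somatodendritic library correlated best with the axonal library of its own number, for +/+ replicate 4 barely so (0.077 against 0.074). That is a hint from the data, as the labels do not say which libraries shared a chamber. The 4 libraries per group and the axonal dispersion of 0.275 limit what a genotype comparison could show.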

Other observations

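The genes whose pattern over the 16 libraries was most like that of a member were sought among 11226 genes with a mean of at least 10 CPM, by Pearson's r of log2 CPM, as a description over libraries that share compartments and depth. Mt1 was closest to Mt2 (0.995) and 3110009E18Rik (0.984). Mt3 was closest to Ndufb7 (0.986), a subunit of mitochondrial complex I, and Smdt1 (0.985), a part of the mitochondrial calcium uniporter. Hmox1 was closest to the lysosomal hydrolase gene Aga (0.976) and to Pros1 (0.972), which encodes protein S. Nqo1 was closest to the aldehyde dehydrogenase gene Aldh7a1 (0.979) and the glycosylation gene Alg3 (0.974). Slc7a11 was closest to the alpha-tubulin gene Tuba1a (0.981) and to Gm3756 (0.959).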
